A study of Mus musculus with 12 samples.

Results

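Cyclins and cyclin-dependent kinases (CDKs) form a family of 38 genes here, taken by symbol from the 24062 genes of the count data. They comprise 20 cyclins and 18 kinases. By their known roles, 13 were grouped as cell cycle members (9 cyclins and 4 CDKs), 15 as transcriptional members (7 cyclins and 8 CDKs) and 10 as atypical members (4 cyclins and 6 CDKs). All 38 were found and all passed the low count filter in each of the comparisons. The study asked whether starvation of tryptophan (Trp), an essential amino acid, limits liver tumors and what it changes in their expression, and polyA RNA was sequenced from 12 tissues of mice kept for 21 days on a control diet or a No-Trp diet. MYC-ON livers came from FVB LAP-tTA/TRE-MYC mice, in which the LAP-tTA transgene drives MYC in the liver once doxycycline is withdrawn on the day of birth. There were 3 on the control diet (mice 101, 102 and 103) and 3 on the No-Trp diet (mice 105, 107 and 108). The labels state male sex and an age of 45 days for another comparison of the study, not for the diet groups. The HCC53N xenografts were tumors of 1 line of mouse primary liver tumor cells, knocked out for p53 and overexpressing mutant NRAS, grown in NOD SCID hosts (NOD-SKID in the labels), which lack functional T and B cells but keep other host cells. Control diet tumors came from mice 40, 41 and 43 and No-Trp tumors from mice 35, 36 and 37. The labels give the genotype FVB MYC ON to the xenografts as well, whereas the methods of the study derive the line from an Alb-Cre p53 fl/fl model with mutant Nras.

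A CDK is a kinase that is nearly inactive until a cyclin binds it. In the cell cycle, D-type cyclins with Cdk4 or Cdk6 and E-type cyclins with Cdk2 drive entry into S phase, cyclin A carries S phase and cyclin B with Cdk1 drives mitosis; their mRNAs are made and lost with the cycle, and the adult liver, being mostly quiescent, holds little of several of them. Transcriptional members act on RNA polymerase II and on splicing: Cdk7 with cyclin H initiates, Cdk8 or Cdk19 with cyclin C belong to Mediator, Cdk9 with cyclin T releases paused polymerase, Cdk12 and Cdk13 with cyclin K sustain elongation, and Cdk11 with cyclin L acts in splicing. Atypical members, such as Cdk5, cyclin Y with Cdk14 and Cdk16, or cyclins G2 and I, are not tied to a stage of the cycle in the classical way.

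Genes of the G2 and M phases are known to carry CCAAT boxes and the cell cycle homology element TTTGAA near their start, and MYC is known to bind the E-box CACGTG. The 250 bases before each RefSeq start on GRCm38.p6 were searched on both strands for CCAAT, for TTTGAA, for CACGTG, for the E2F motifs TTCCCGC and TTGGCGC, and for the cAMP response element TGACGTCA; hits of different motifs were allowed to overlap, as CCAAT and TTGGCGC can. Of the 38 members, 29 had a promoter in the RefSeq table. The 2 promoters shown first are of a kinase and a cyclin of mitosis and carry CCAAT and TTTGAA, the 3rd is of Cdk4, with 4 copies of CACGTG, and the 4th is of Ccnl2, a transcriptional cyclin that moved the other way in the livers. Each is read 5′ to 3′ on the strand of its gene, up to the first base of any GENCODE M21 exon, with all matches to these motifs in capitals (ATTGG is CCAAT on the other strand).
Cdk1, chr10:69352939-69353162, minus strand, capitals CCAAT and TTTGAA, with 1 copy of TTGGCGC: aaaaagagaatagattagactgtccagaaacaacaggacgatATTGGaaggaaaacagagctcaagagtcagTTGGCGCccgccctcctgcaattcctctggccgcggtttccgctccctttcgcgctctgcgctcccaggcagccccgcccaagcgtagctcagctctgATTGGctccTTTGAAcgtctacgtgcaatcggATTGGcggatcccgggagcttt
Ccnb2, chr9:70421555-70421804, minus strand, capitals CCAAT and TTTGAA: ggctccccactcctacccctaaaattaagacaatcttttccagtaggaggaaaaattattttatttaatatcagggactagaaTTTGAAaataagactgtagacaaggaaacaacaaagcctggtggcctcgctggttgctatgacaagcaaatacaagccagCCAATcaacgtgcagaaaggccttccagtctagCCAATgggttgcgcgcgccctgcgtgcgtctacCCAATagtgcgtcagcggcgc
Cdk4, chr10:127063285-127063533, plus strand, capitals CACGTG: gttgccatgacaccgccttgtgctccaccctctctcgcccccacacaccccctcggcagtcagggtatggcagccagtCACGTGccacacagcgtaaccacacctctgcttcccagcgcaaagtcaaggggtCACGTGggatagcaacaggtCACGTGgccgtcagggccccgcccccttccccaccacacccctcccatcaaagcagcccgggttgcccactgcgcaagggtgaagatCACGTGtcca
Ccnl2, chr4:155812239-155812488, plus strand, capitals CCAAT: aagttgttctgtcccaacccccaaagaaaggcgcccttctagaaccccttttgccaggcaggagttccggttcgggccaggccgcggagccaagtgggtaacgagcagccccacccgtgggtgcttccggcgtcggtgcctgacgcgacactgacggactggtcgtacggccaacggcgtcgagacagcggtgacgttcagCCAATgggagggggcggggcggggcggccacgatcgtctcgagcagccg

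Among members whose promoter was searched, CCAAT stood in the windows of 6 of 9 cell cycle members, 6 of 13 transcriptional members and 3 of 7 atypical members, against 34.8% of the 13461 promoters of tested genes. TTTGAA stood in 3 of 9, 0 of 13 and 2 of 7, against 10.9%. CACGTG stood in 2 members of each class, against 8.02%, but only 3 of the 13461 promoters held 4 or more copies, Cdk4 among them. Ccni, which had the largest positive fold change of the members in the livers, held TTTGAA at positions -137 and -92 before its start. These matches are descriptions of letters in a window, and binding was not measured.

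Between 14660963 and 26085349 reads were assigned to genes per library, while 24.7 to 39.4% of the counted reads were left unassigned. Control liver 101 stood apart in that 12.1% of its assigned reads lay on the ribosomal RNA gene Rn45s, and 4 libraries (control liver 101, No-Trp liver 108 and control xenografts 41 and 43) carry a mark of resubmission, whose meaning is not given in the sources used here. The summed level of 6 hepatocyte markers was 10484 to 37069 CPM (counts scaled to library size) in control livers, 45540 to 114230 CPM in No-Trp livers and only 318 to 1439 CPM in the xenografts, where Alb was at 74.8 to 344 CPM. The defining markers of hepatocytes were thus low in tumors whose labels derive them from hepatocytes. The summed level of 4 cholangiocyte markers was 338 to 837 CPM in the xenografts and 18.4 to 51.1 CPM in the livers. Of these, the biliary and progenitor marker Krt19 was at 169 to 648 CPM in the xenografts and 6.14 to 19.9 CPM in the livers. Krt7 and Sox9 were also higher in every xenograft than in every liver, but Epcam overlapped (5.94 to 19.9 against 3.78 to 12.8 CPM). The summed level of 9 erythroid precursor markers was 60.9, 593 and 390 CPM in control livers 101, 102 and 103 and 19.8 to 30.7 CPM in No-Trp livers; 2 of these markers, the globin genes Hbb-bt and Hba-a1, were listed at 0 everywhere. In bulk tissue, fewer cells of a type and less RNA per cell cannot be told apart.

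Levels are given as RPKM, reads per kilobase of merged exons, further scaled to a common library size by TMM, so that genes can be set beside each other. In control livers the highest of the 38 was Cdk4, the partner of D-type cyclins, with a mean of 106.5 RPKM and a range of 88.4 to 127 over the 3 mice. It was followed by Ccnb2 (53.8), Ccna2 (39.3), Ccnb1 (37.6), Ccni (35.9) and Cdk1 (33.1); Ccna2, Ccnb1, Ccni and Cdk1 overlapped from one to the next. In control xenografts Cdk4 was also first (167 RPKM, range 141 to 182), overlapping with Ccnd1 in second place (132, range 119 to 156), then Ccni (104) and Ccng2 (38.7). The lowest by mean was Cdk14 in both liver groups, with 36 to 67 reads per liver, and in the No-Trp xenografts, where it overlapped with Cdk6. In the control xenografts Ccne2 was the lowest, at 0.67 RPKM against 1.05 RPKM for Cdk14.

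The first question was how the No-Trp diet changed the family in MYC-ON livers. Of the 13 cell cycle members, 8 fell and none rose: cyclins A2, B1, B2, E1, E2 and F and the kinases Cdk1 and Cdk4. None of the 15 transcriptional members and 1 of the 10 atypical ones, Ccni, passed the same rule, which combined a limit of 0.05 on the adjusted p of edgeR's quasi-likelihood test with a change of 2-fold or more (1 on the log2 scale). Of all 14122 genes tested, 7.27% fell and 9.28% rose by that rule. DESeq2 gave the same 8 falling members and Ccni. In edgeR 4 of the 15 transcriptional members had an unadjusted p under 0.05, as did 5901 of the 14122 genes tested. By the adjusted p alone, 10 cell cycle members fell, 1 transcriptional member rose and 1 fell, and 1 atypical member rose, against 12% falling and 13.3% rising over all genes. The median log2 fold change was -1.36 in cell cycle members, -0.04 in transcriptional members and 0.21 in atypical members, against 0.00 over all genes.

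Ccnb1, the cyclin of mitotic entry (chr13:100778650-100786570, minus strand), stood at 39.0, 34.8 and 38.9 RPKM in the control livers and at 13.1, 2.7 and 11.1 RPKM in the No-Trp livers. The groups did not overlap, and mouse 107 lay far below its group. Its log2 fold change was -2.06 ± 0.52 (SE; edgeR adjusted p = 0.033), about 4.16-fold lower. Cdk1, its kinase (chr10:69335146-69352938, minus strand), stood at 40.6, 28 and 30.8 RPKM against 10.2, 1.86 and 11.6 RPKM. Again all 3 control livers were above all 3 No-Trp livers and mouse 107 was the lowest, with a log2 fold change of -2.06 ± 0.61 (edgeR adjusted p = 0.048). Ccnb2, the second B-type cyclin, fell by 1.63 on the log2 scale (SE 0.45, edgeR adjusted p = 0.041), from 58.8, 49.3 and 53.3 RPKM to 22.7, 6.19 and 22.8 RPKM.

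Ccna2, which activates Cdk2 in S phase and Cdk1 in G2, gave the lowest fold change of the family. Its levels were 35.4, 40.1 and 42.5 RPKM on the control diet and 13.8, 2.58 and 10.8 RPKM on the No-Trp diet, a log2 fold change of -2.10 ± 0.55 (edgeR adjusted p = 0.036). Its exons overlap those of Exosc9 on the other strand, and since strand was not stated for the counting, reads of such pairs cannot be told apart. The same holds for Ccnd3 (Bysl), Ccne2 (Ints8), Cdk2 (Pmel), Cdk4 (Tspan31), Ccnc (Tstd3), Ccnh (Rasa1), Cdk10 (Spata2l) and Cdk17 (Elk3), and for Ccnd2 and Ccnt1, which overlap unnamed RIKEN genes. Ccnf, an F-box protein that marks partners for degradation in G2, went from 8.37, 10.1 and 11.6 RPKM to 4.26, 0.88 and 3.05 RPKM (log2 fold change -1.87 ± 0.51). The groups were separate for both genes.

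Ccne1, which activates Cdk2 at the start of S phase, was at 24.3, 24.3 and 26.5 RPKM in control livers and at 8.29, 3.33 and 10.7 RPKM in No-Trp livers, with a log2 fold change of -1.74 ± 0.39 (edgeR adjusted p = 0.025). Its paralog Ccne2 lay about an order of magnitude lower, at 1.75, 2.90 and 2.98 against 1.13, 0.93 and 0.87 RPKM, and fell by 1.36 on the log2 scale (SE 0.30, edgeR adjusted p = 0.025). Cdk2, their kinase, differed less in size than it did in precision: 6.95, 6.72 and 6.89 against 4.72, 4.23 and 4.64 RPKM, a log2 fold change of -0.58 ± 0.14 (edgeR adjusted p = 0.030), past the adjusted p but below 2-fold. Cdk4 went from 127, 88.4 and 104 RPKM to 48.0, 23.7 and 58.7 RPKM (log2 fold change -1.28 ± 0.34, edgeR adjusted p = 0.035). Cdk6, the other partner of D-type cyclins, was at 1.03, 0.34 and 0.67 against 0.20, 0.15 and 0.48 RPKM; the groups overlapped and the estimate of -1.30 had an edgeR adjusted p of 0.12.

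**Figure D1:**
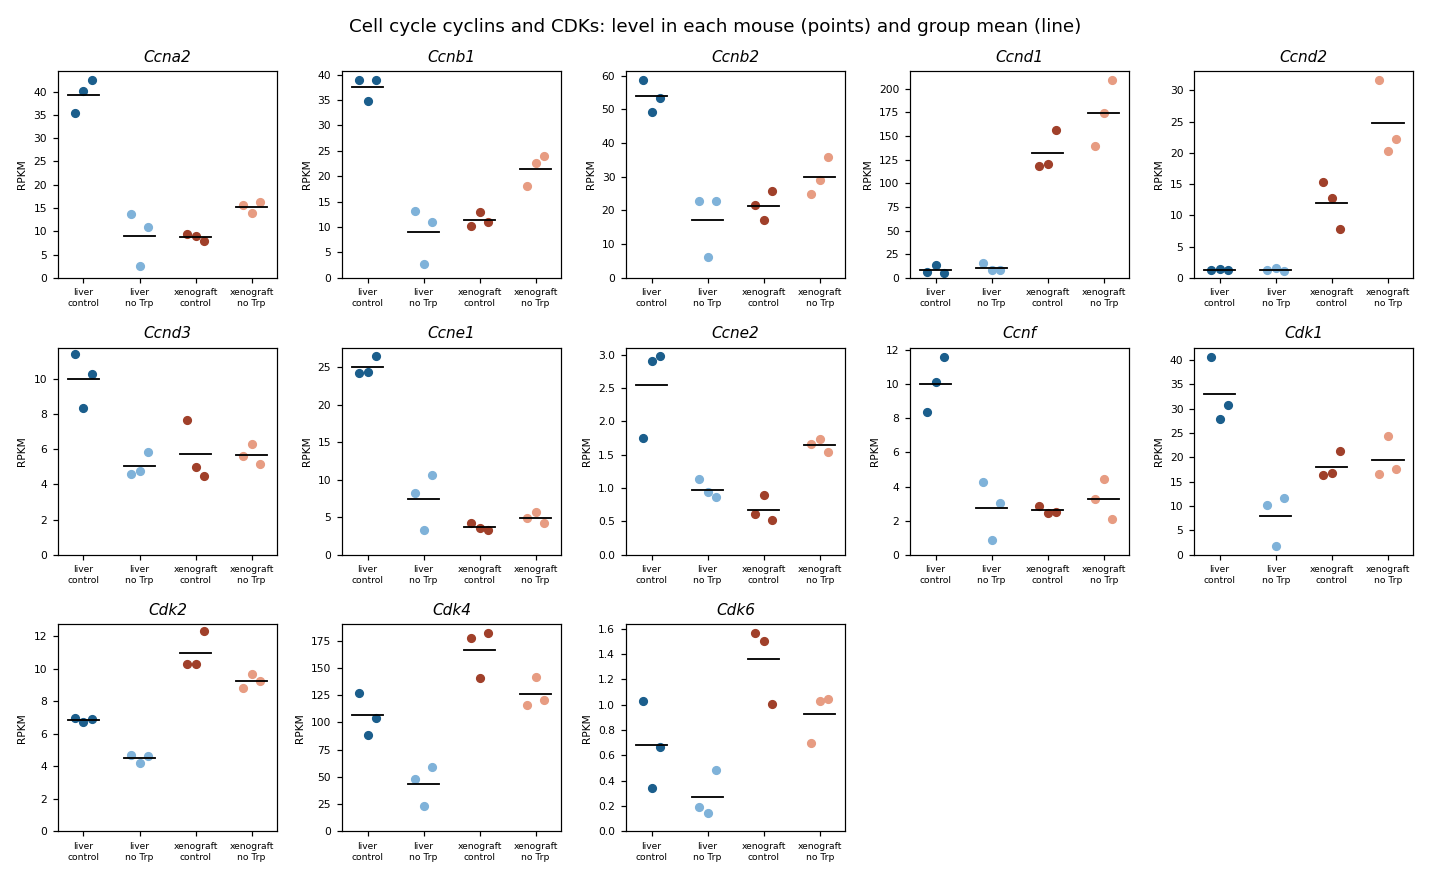
Level of each of the 13 cell cycle members in RPKM (vertical axes, from 0) in the 4 groups of 3 mice; points are mice and lines group means. In the livers, 10 of the 13 genes have every No-Trp mouse below every control mouse, whereas Ccnd1, Ccnd2 and Cdk6 overlap.

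D-type cyclins link growth factor signals to the cycle. Ccnd1 was at 6.05, 13.4 and 5.07 RPKM in control livers and 15.3, 8.15 and 8.15 RPKM in No-Trp livers, and the groups overlapped (log2 fold change 0.39, interval -0.60 to 1.38). Ccnd2 was at 1.25 to 1.34 RPKM in control and 1.06 to 1.58 RPKM in No-Trp livers (log2 fold change 0.03, interval -0.49 to 0.56). Ccnd3 stood at 11.5, 8.36 and 10.3 RPKM in the control livers and at 4.57, 4.75 and 5.86 RPKM in the No-Trp livers, a log2 fold change of -0.97 ± 0.18 that passed the adjusted p alone (edgeR adjusted p = 0.020). Ccnd3 thus made up 36.2 to 62.0% of the summed D-type level in control livers and 21.6 to 38.9% in No-Trp livers, with overlap between control mouse 102 and No-Trp mouse 108.

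In 10 of the 13 cell cycle members no No-Trp liver reached the lowest control liver, against 25% of all genes that were separate in that direction. No cell cycle member was separate in the other direction, against 23.6%. Mouse 107 was the lowest No-Trp liver for 10 of the 13, all 4 kinases included. Without this mouse, the median of the cell cycle members was -1.24 and 6 members fell (Ccne2 and Cdk4 did not pass). The fold changes were steadier than the calls, which lay close to the threshold: with single livers left out, Ccnb1 ranged from -2.43 to -1.63 and Ccne1 from -2.09 to -1.39 on the log2 scale, while the number of falling members went to 0 without control liver 103 or No-Trp liver 105, to 1 without control liver 101, to 4 without No-Trp liver 108 (Ccnd3, Ccne1, Cdk4 and Cdk6) and to 9 without control liver 102. The calls over all genes moved in the same fits, from 1026 falling genes to 1 without control liver 103, 70 without No-Trp liver 105 and 116 without control liver 101. Among the 4 livers without the resubmission mark (102 and 103 against 105 and 107), the median of the cell cycle members was -1.57 and the log2 fold change of Ccnb1 was -2.23, but no gene passed in edgeR, neither a member nor any other, although 4948 of 14198 genes had an unadjusted p under 0.05. Scaling by library totals shifted the median of all genes to -0.30 and changed the split from 1311 rising and 1026 falling genes to 732 and 1532; 9 members then fell, with Ccnd3 and Cdk12 added and Cdk1 lost.

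**Figure D2:**
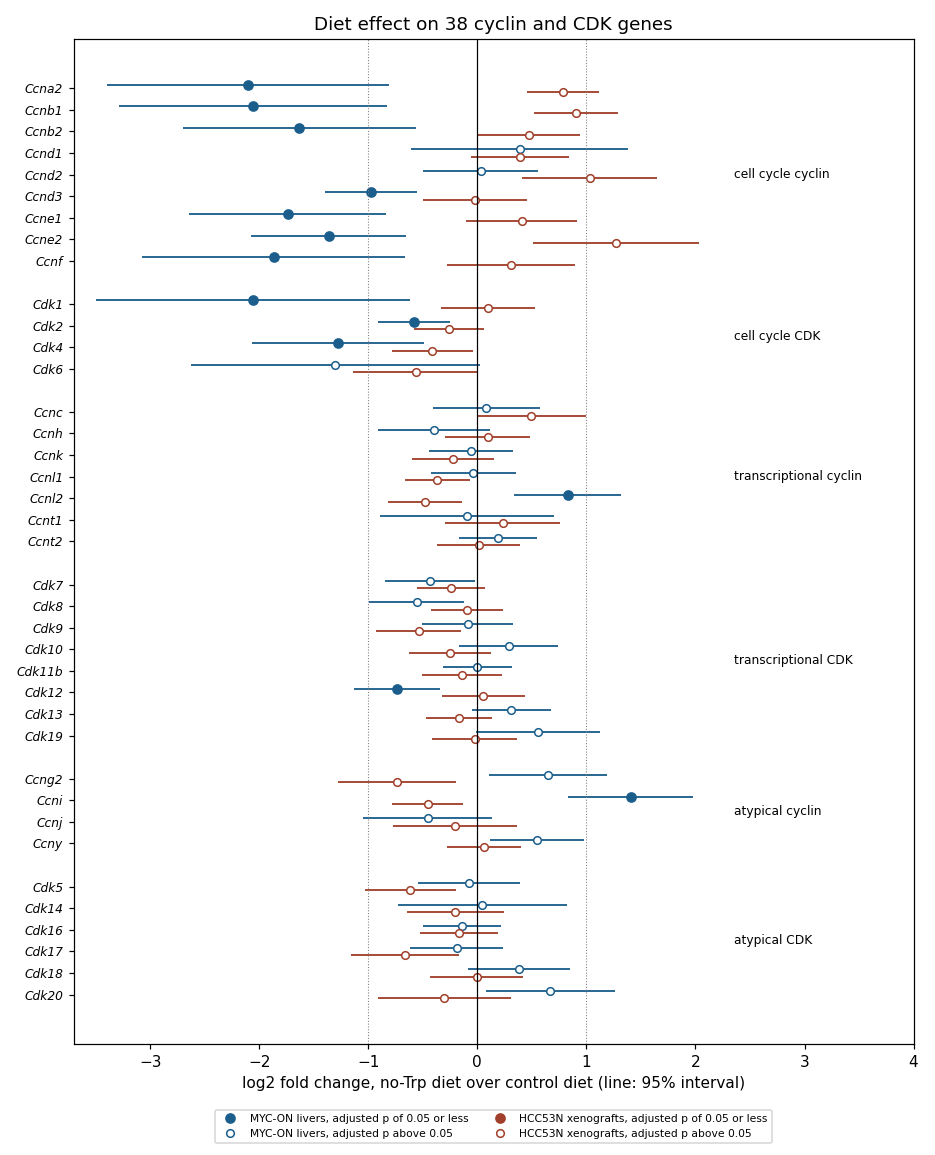
Log2 fold change of each of the 38 genes, No-Trp over control diet (horizontal axis), in livers (blue) and xenografts (red), with 95% intervals from the edgeR fits; filled points have an adjusted p of at most 0.05 and dotted lines mark log2 changes of 1. The filled points are 13 liver points, of which 10 are cell cycle members to the left of 0; no xenograft point is filled.

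Values of other cell types moved with the same contrast. Erythroid precursor markers were lower in the No-Trp livers (4 of the 7 tested fell, median log2 fold change -3.65), and hepatocyte markers were higher (2 of 6 rose, median 1.37). Among the defining erythroid markers, Slc4a1 was at 17.9, 314 and 192 CPM in control livers and 1.72 to 7.77 CPM in No-Trp livers. Control liver 101 had the lowest erythroid sum of the controls, 60.9 CPM, which was above the 19.8 to 30.7 CPM of the No-Trp livers. Its Ccnb1 level was 39.0 RPKM and its Cdk1 level 40.6 RPKM. The summed hepatocyte markers did not overlap between diets, with 37069 CPM in control liver 102 (highest control) and 45540 CPM in No-Trp liver 108 (lowest No-Trp). Alb made up most of that sum in the No-Trp livers, at 30217 to 88176 CPM. Of the 6 markers, Apoa1 and Serpina1c overlapped between diets. Apoa1 was at 4672 CPM in control liver 102 and 3416 CPM in No-Trp liver 105, and Serpina1c at 603 and 132 CPM. Ccnb1 was at 34.8 RPKM in control liver 102 and 11.1 RPKM in No-Trp liver 108. No-Trp liver 107 had both the most hepatocyte marker RNA, 114230 CPM, and the least Ccnb1. Macrophage markers spanned 174 to 339 CPM in control and 223 to 457 CPM in No-Trp livers, and lymphocyte markers were between 2.34 and 5.80 CPM. Their part in the fall of the cell cycle members was not tested.

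**Figure D3:**
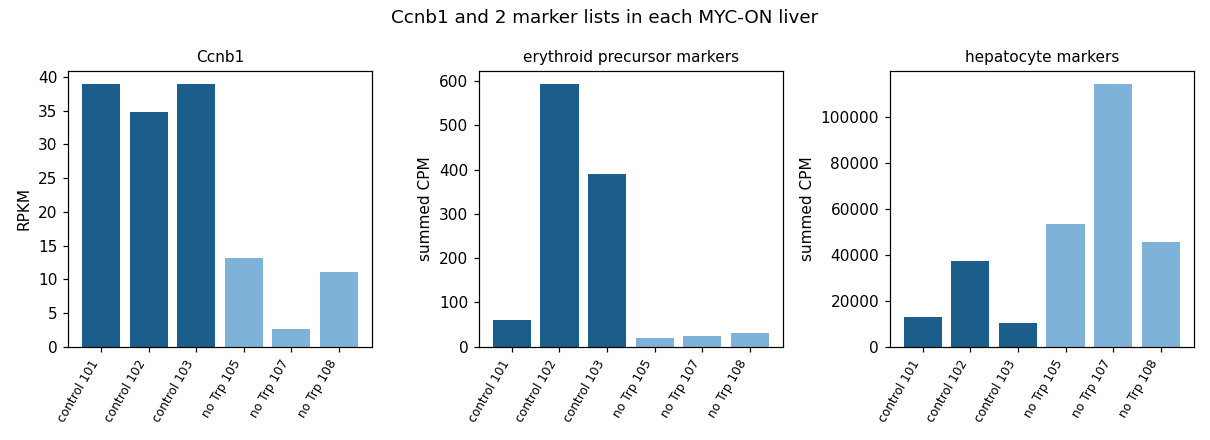
Ccnb1 level in RPKM (left) and summed CPM of 9 erythroid precursor markers (middle) and 6 hepatocyte markers (right) in each of the 6 MYC-ON livers; dark bars are control and light bars No-Trp mice. Control 101 has the lowest erythroid sum of the controls, above that of every No-Trp liver. No-Trp 107 has the lowest Ccnb1 and the highest hepatocyte sum.

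Of the 15 transcriptional members in the livers, 2 passed the adjusted p, in opposite directions and below 2-fold. Ccnl2, a cyclin of Cdk11 that acts in splicing (chr4:155812489-155824543, plus strand), stood at 30.3, 27.6 and 24.1 RPKM on the control diet and at 39.7, 60.1 and 43.9 RPKM on the No-Trp diet, a log2 fold change of 0.83 ± 0.21 (edgeR adjusted p = 0.032, and 0.081 with library totals). Its paralog Ccnl1 was at 8.56 to 12 against 9.31 to 10.1 RPKM, with an interval of -0.42 to 0.35. Their kinase Cdk11b was nearly level, at 21.3 to 22.4 against 19.5 to 22.9 RPKM. Cdk12, which phosphorylates the polymerase tail during elongation (chr11:98203059-98278504, plus strand), was lower: 5.06, 4.69 and 6.03 RPKM against 3.17, 3.40 and 2.78 RPKM (log2 fold change -0.74 ± 0.17, edgeR adjusted p = 0.026). Cdk13, its close relative, was at 3.95 to 4.12 against 4.37 to 5.74 RPKM, separate upward but not past the test (log2 fold change 0.31, edgeR adjusted p = 0.17), and their cyclin Ccnk overlapped between diets.

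The Mediator kinases had estimates of opposite sign. Cdk8 was at 11, 11.2 and 12.6 RPKM in control and 7.97, 6.08 and 9.34 RPKM in No-Trp livers (log2 fold change -0.56 ± 0.19, edgeR adjusted p = 0.064), and Cdk19 at 1.35, 2.00 and 1.86 against 2.32, 3.0 and 2.26 RPKM (0.56 ± 0.24, edgeR adjusted p = 0.13). Neither passed, although the groups were separate for both. Cdk19 made up 11 to 15.1% of the summed level of both in control livers and 19.5 to 33.0% in No-Trp livers. For the remaining transcriptional members, Ccnc, Ccnh, Ccnt1, Ccnt2, Cdk7, Cdk9 and Cdk10, estimates lay between -0.43 (Cdk7) and 0.29 (Cdk10). Ccnt1 and Ccnt2, the cyclins of Cdk9, had intervals of -0.90 to 0.70 and -0.17 to 0.55, so for Ccnt1 changes within that range cannot be told from none.

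Atypical members included the 1 gene of the family that rose past both thresholds. Ccni, a cyclin without a settled kinase partner in the cycle (chr5:93181933-93206495, minus strand), stood at 34.4, 39.2 and 34.0 RPKM on the control diet and at 80.9, 128 and 73.0 RPKM on the No-Trp diet. The groups did not overlap, mouse 107 was the highest, and the log2 fold change was 1.41 ± 0.24 (edgeR adjusted p = 0.019; 0.051 to 0.087 without control liver 101, control liver 103 or No-Trp liver 105). Ccng2, its neighbour on the chromosome and a cyclin linked to cell cycle arrest (chr5:93267257-93276231, plus strand), was at 1.57, 2.14 and 2.36 against 2.98, 3.53 and 2.89 RPKM, separate but not past the test (0.65 ± 0.23, edgeR adjusted p = 0.076). Ccny, the cyclin that brings Cdk14 and Cdk16 to membranes, was at 11.6, 13.2 and 13.1 against 18.3, 21.8 and 14.6 RPKM (0.55 ± 0.18, edgeR adjusted p = 0.064). Ccnj was lower in all No-Trp livers, at 1.27 to 1.93 against 1.95 to 2.20 RPKM, without passing (edgeR adjusted p = 0.21). Of the 6 atypical kinases none passed, with estimates from -0.19 (Cdk17) to 0.67 (Cdk20).

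**Figure D4:**
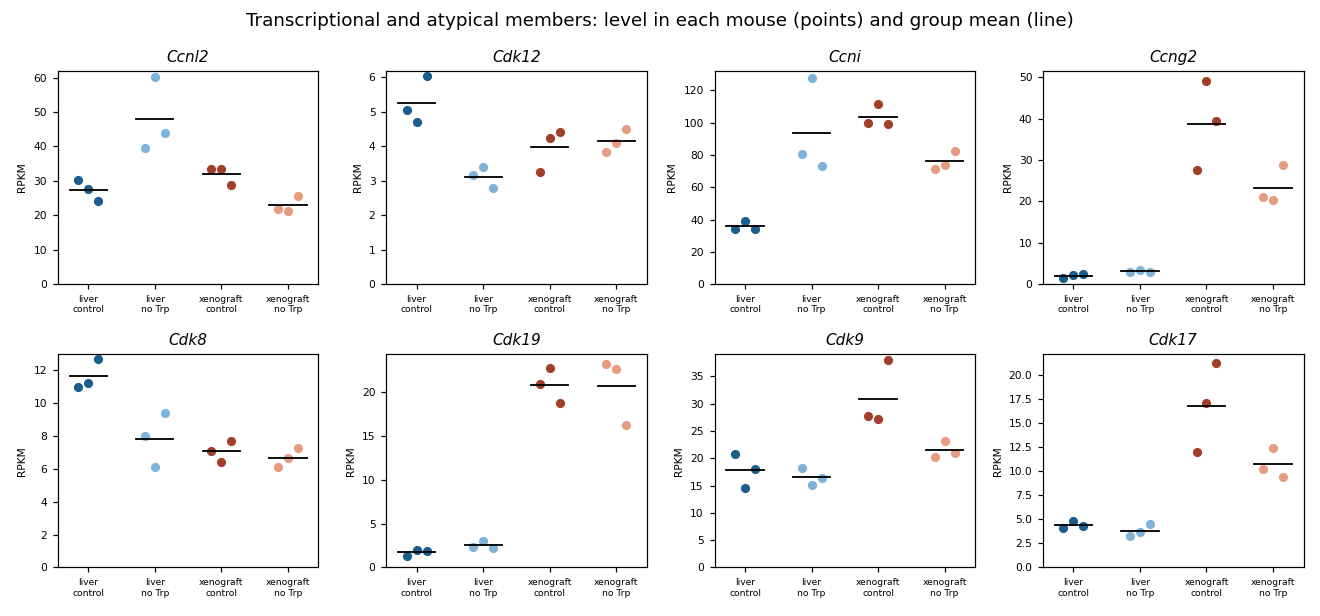
Level in RPKM (vertical axes, from 0) of 5 transcriptional and 3 atypical members that the text turns on, in the 4 groups of 3 mice; points are mice and lines group means. Ccnl2 and Ccni stand higher in the No-Trp than in the control livers and lower in the No-Trp than in the control xenografts, and Ccng2, Cdk19 and Cdk17 are several-fold higher in xenografts than in livers.

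The second question was whether the same diet changed the family in HCC53N xenografts. No member passed either rule in edgeR, where 0.245% of 14704 genes rose and 0.116% fell; 13 of the 38 had an unadjusted p under 0.05, and 2483 of all genes. DESeq2 called 2 members higher, Ccnd2 and Ccne2, and 250 genes higher in all; by its adjusted p alone Ccna2 and Ccnb1 passed as well. Ccna2 and Ccnb1 also passed the edgeR adjusted p without a low count filter (0.041 and 0.033) and with library totals (0.048 and 0.043). They did not pass it with the resubmission mark as covariate (0.22 and 0.18) or in 1 fit over the 12 libraries (0.41 and 0.34). Neither passed it with any single tumor left out. With library totals, 1 member, Ccnb1, rose, and the split of all genes went from 36 rising and 17 falling to 60 and 11. The median log2 fold change was 0.39 in cell cycle members, -0.14 in transcriptional members and -0.25 in atypical members, against 0.00 over all genes.

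Among cell cycle cyclins 8 of 9 had positive estimates, and in 5 of them, Ccna2, Ccnb1, Ccnd2, Ccne1 and Ccne2, every No-Trp tumor was above every control tumor, against 10.8% of all genes. Ccnb1 stood at 10.2, 13 and 11 RPKM in control tumors and at 18.0, 22.6 and 24.0 RPKM in No-Trp tumors (log2 fold change 0.91 ± 0.17, edgeR adjusted p = 0.060, and 0.0019 in DESeq2). Ccna2 was at 9.42, 8.98 and 7.97 against 15.6, 13.9 and 16.3 RPKM (0.79 ± 0.15, edgeR adjusted p = 0.059). The tumors on the No-Trp diet were thus the higher ones for both, by less than 2-fold.

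Ccnd2 was at 15.4, 12.8 and 7.77 RPKM against 31.6, 20.3 and 22.2 RPKM, a log2 fold change of 1.03 ± 0.27 (edgeR adjusted p = 0.14). Ccne2 was at 0.60, 0.89 and 0.52 RPKM against 1.66, 1.73 and 1.54 RPKM (1.27 ± 0.34, edgeR adjusted p = 0.13), resting on 30 to 78 reads per control tumor and 127 to 181 per No-Trp tumor. Ccnd1 overlapped, at 119 to 156 against 140 to 209 RPKM.

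Of the 4 cell cycle kinases 3 had negative estimates. Cdk1 was at 16.3, 16.7 and 21.3 RPKM against 16.5, 24.3 and 17.7 RPKM, with an interval of -0.34 to 0.53. Cdk4 was at 177, 141 and 182 against 116, 142 and 120 RPKM (log2 fold change -0.41 ± 0.16, edgeR adjusted p = 0.26), and Cdk2 was lower in all No-Trp tumors (8.81 to 9.64 against 10.3 to 12.3 RPKM) without passing. Downward separation was seen in 7 of the 38 members, Cdk2, Cdk5, Cdk7, Cdk9, Ccni, Ccnl1 and Ccnl2, against 11.8% of all genes. Cdk9, the kinase that frees paused polymerase, was at 27.7, 27.2 and 37.9 against 20.3, 23.2 and 20.9 RPKM (log2 fold change -0.54, edgeR adjusted p = 0.18), and Cdk5, known best from neurons, at 35.6, 26.3 and 36.8 against 23.2, 24.2 and 17.7 RPKM (-0.61, edgeR adjusted p = 0.17). Host cells vary between these tumors: the summed level of 4 adipocyte markers was 11.4 to 66.6 CPM in control and 351 to 736 CPM in No-Trp tumors, and that of 6 fibroblast markers 1091 to 4296 against 1713 to 5400 CPM. Whether they bear on the cyclin values was not tested.

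The third question was whether the diet effect differed between the models, tested as the difference of the effects (xenograft minus liver) in 1 fit over the 12 libraries. The estimate was above 0 in all 13 cell cycle members, of which Ccnd1 (0.03) turned negative in DESeq2 (-0.056), with RLE factors (-0.057) and with the resubmission covariate (-0.19) and ranged from -0.51 to 0.40 with single libraries left out. In 7 of the 13, Ccna2, Ccnb1, Ccnb2, Ccne1, Ccne2, Ccnf and Cdk1, the difference passed both thresholds, against 6.7% of 15472 genes. By the adjusted p alone there were 9 members with positive differences, Ccnd3 and Cdk12 being added, against 8.25% of all genes. Ccnb1 gave 2.99 ± 0.58 (edgeR adjusted p = 0.011) and Ccne2 2.66 ± 0.43 (edgeR adjusted p = 0.0066), from effects of -2.06 and 0.91 for Ccnb1 and of -1.36 and 1.27 for Ccne2. For Cdk1 the difference of 2.18 was at the threshold (edgeR adjusted p = 0.050), and for Cdk4 it did not pass (0.89 ± 0.39, edgeR adjusted p = 0.14). For Ccnd1 the effects were alike in estimate, with a difference of 0.03 and an interval of -1.07 to 1.13.

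In the other direction Ccni (-1.83 ± 0.28, edgeR adjusted p = 0.0057), Ccnl2 (-1.28 ± 0.25, edgeR adjusted p = 0.010) and Ccng2 (-1.36 ± 0.32, edgeR adjusted p = 0.019) passed both thresholds, against 6.01% of all genes, or 7.39% by the adjusted p alone. These 3 were higher in No-Trp than control livers and lower in No-Trp than control tumors by their estimates. Leaving out single libraries gave 4 to 8 members with positive differences and 3 with negative ones each time; the 4 stood without control liver 103. Among the unmarked libraries alone, with a single control tumor, the difference was 3.30 for Ccnb1, -1.90 for Ccni and -0.77 for Ccng2, and no member passed in edgeR (adjusted p = 0.11, 0.068 and 0.18), where 15 genes passed in all and 4239 had an unadjusted p under 0.05. The effect on Ccng2 in the xenografts was -0.74 over all 6 tumors and -0.25 in the unmarked tumors or with the mark as covariate. With library totals the median of all genes moved to 0.41, the split from 1036 positive and 930 negative genes to 1825 and 437, and of the 3 negative members Ccni alone passed both thresholds; Ccnl2 stood at -0.89 (edgeR adjusted p = 0.020) and Ccng2 at -0.96 (edgeR adjusted p = 0.074).

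The fourth comparison set the control xenografts against the control livers. These differ in tissue, site of growth, growth in culture, host strain and driver genes together, which cannot be told apart. Sex of host may differ as well, since the methods name male MYC mice and female NOD SCID hosts, with repeats in males. Of the 38 members 8 were higher and 6 lower in the tumors, where 23.3% of 15472 genes were higher and 20.2% lower. Neither count of members was above the share of all genes. The 6 lower ones were Ccna2, Ccnb1, Ccnb2, Ccne1, Ccne2 and Ccnf; in the unmarked libraries alone, 1 tumor against 2 livers, Ccne1 (-2.60) and Ccne2 (-2.28) passed, while Ccna2 (-2.13), Ccnf (-1.92), Ccnb1 (-1.86) and Ccnb2 (-1.26) had similar fold changes and edgeR adjusted p of 0.082 to 0.17. Ccne1 was the lowest relative to livers, at 4.18, 3.61 and 3.27 RPKM against 24.3 to 26.5 RPKM (log2 fold change -2.76 ± 0.34, edgeR adjusted p = 2.31e-05).

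Higher in the tumors were Ccnd1, Ccnd2, Ccng2, Ccni, Cdk5, Cdk14, Cdk17 and Cdk19. Ccng2 gave the largest difference, 27.6, 49.2 and 39.5 RPKM against 1.57 to 2.36 RPKM in the livers (log2 fold change 4.26 ± 0.26). Ccnd1 was at 119, 121 and 156 against 6.05, 13.4 and 5.07 RPKM (4.01 ± 0.40), and Ccnd2 at 7.77 to 15.4 against 1.25 to 1.34 RPKM (3.22 ± 0.27). Ccnd1 therefore made up 78.9 to 92.7% of the summed D-type level in the 6 xenografts and 30.5 to 72.4% in the 6 livers, and Ccnd3 2.18 to 5.41% against 21.6 to 62.0%; the models did not overlap. The mRNA of the Mediator kinases switched places: Cdk19 was at 18.8 to 22.8 RPKM in control tumors and 1.35 to 2.00 RPKM in control livers (3.58 ± 0.21), so that its share of the Cdk8 and Cdk19 sum was 69.1 to 79.3% in xenografts and 11 to 33.0% in livers. Cdk14, a kinase of cyclin Y, was at 0.95 to 1.10 against 0.09 to 0.16 RPKM. Cdk4 exceeded Cdk6 in every library, with 98.9 to 99.6% of their sum.

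**Figure D5:**
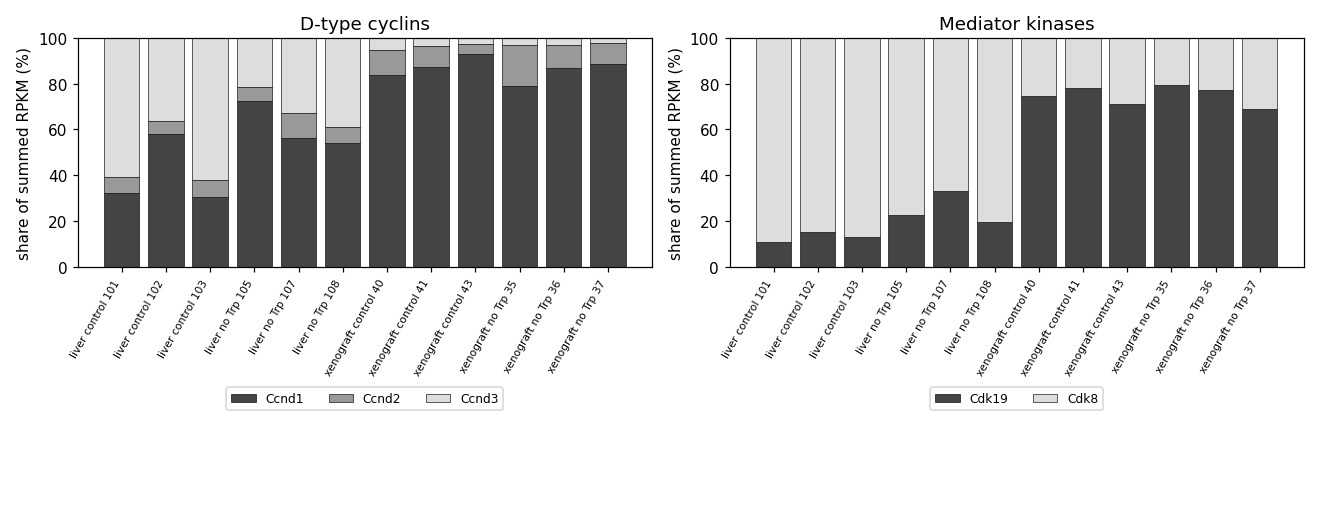
Share of each gene in the summed RPKM (vertical axes, percent) of the D-type cyclins Ccnd1, Ccnd2 and Ccnd3 (left) and of the Mediator kinases Cdk8 and Cdk19 (right) in each of the 12 libraries. Ccnd1 takes 78.9% or more in all xenografts, and Cdk19 goes from at most 33.0% in livers to at least 69.1% in xenografts.

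Regulators of CDKs and other genes of the pathway were counted in fixed lists. All 6 proliferation markers fell in No-Trp livers, against 7.27% of all genes that fell and 9.28% that rose (Mki67 by 2.39 and Top2a by 2.32 on the log2 scale), and none passed in the xenografts, where their median was 0.49. Of 8 CDK phosphatases, inhibitory kinases and docking subunits, 5 fell in the livers: Cdc25b (-2.10), Cdc25c (-2.06) and Cdc25a (-1.55), the phosphatases that switch CDKs on, and the docking subunits Cks1b (-1.49) and Cks2 (-1.11). Of 8 CDK inhibitors, 3 fell and none rose, with a median of -0.21: Cdkn3 (-1.63), a phosphatase of CDKs, Cdkn1c (-1.45) and Cdkn2d (-1.25).

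Cyclin degradation genes were 19, of which 5 fell in the livers: Fbxo5 (-2.56), an inhibitor of the anaphase-promoting complex, Ube2c (-2.14) and Ube2s (-1.43), its ubiquitin-conjugating enzymes, Cdc20 (-2.08), its activator, and Skp2 (-2.01), which marks CDK inhibitors for degradation. None of the 10 subunits of the complex from Anapc1 to Anapc11 and Cdc16 to Cdc27 is among them. By the adjusted p alone 7 of the 19 fell, against 12% of all genes, with the subunits Cdc23 (-0.95) and Anapc1 (-0.72) added. Of 13 partners of transcriptional CDKs, 1 rose and 1 fell, which is near the 9.28% and 7.27% of all genes that did: Ell2, an elongation factor (1.56), and Larp7, which holds the 7SK complex that keeps Cdk9 inactive (-1.28). Of 15 other family genes 9 could be tested, and Cdkl2 rose (1.24) while Cdkl1 fell (-2.11). In the xenografts 0 of the 64 tested genes of these 6 lists passed in edgeR or in DESeq2, although 12 had an unadjusted p under 0.05 in edgeR.

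Between the models on the control diet, 2 of the 8 inhibitors were far higher in the tumors, Cdkn2a (log2 fold change 7.39 ± 0.28) and Cdkn2b (6.44 ± 0.30). These are neighbouring genes that encode inhibitors of Cdk4 and Cdk6, and counts per gene do not separate the transcripts of Cdkn2a. Lower in the tumors were 3 inhibitors, Cdkn1c (-4.49 ± 0.54), Cdkn3 (-1.22 ± 0.39) and Cdkn1a (-1.08 ± 0.26). Over all genes 23.3% were higher and 20.2% lower. Of the 6 proliferation markers 4 were lower in the tumors and none was higher. For the difference of the diet effects, all 6 proliferation markers passed with positive values between 1.43 (Pcna) and 2.97 (Mki67), against 6.7% of all genes. Of the 8 inhibitors, Cdkn3 (2.26) and Cdkn2d (1.42) passed with positive differences and Cdkn2a with a negative one (-1.28). Over all genes 6.7% passed with positive and 6.01% with negative differences.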

How the data were processed

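PolyA RNA of 12 mouse tissues was sequenced by Genewiz. Per the labels and methods, the authors trimmed reads with Trim Galore, aligned them with STAR 2.7.2b to mm10 and deposited raw counts per gene from HTSeq, 1 library per mouse; SAMtools 1.9 is also named, and the strand and overlap settings are not given in the sources used here. Per the methods, Bowtie served a check of library quality and BWA the counting of ribosomal RNA and human MYC reads, whose results were not used here. Counts were used as deposited, and the special rows (24.7 to 39.4% of counted reads) were left out of totals. The label gave each group; 1 control xenograft (mouse 40) has data under another name than its title. Members and lists were chosen with earlier results of these data known.

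edgeR 4.0.16 (R 4.3.3; TMM factors, filterByExpr, robust quasi-likelihood) was fitted to the 6 libraries of each model for the diet, and to all 12 for the difference of the effects and for the models, with Benjamini-Hochberg adjustment over all genes tested. Calls combined an adjusted p limit of 0.05 with a size limit of 1 on the log2 scale; SE is the fold change over the square root of F, and intervals are 95%. Samples are separate mice, but the xenografts are 1 cell line. The common spread between mice was 31.6% in livers and 28.7% in xenografts. With 3 against 3, an exact two-sided permutation test cannot go below p = 0.1, so single values are described by overlap. Replicates of a group differed by more than sampling noise (chi-square over its degrees of freedom, 34.6 to 274), so no library was counted as a repeat. RPKM used merged GENCODE M21 exon lengths, known for 94.6% of symbols. All 38 members are named; list genes are named where called, up to 4 by size plus, where a list had more, the rest, which with single marker genes were chosen after their values were seen. Scripts were tested on simulated counts. Alternatives were DESeq2 1.42.0, RLE factors, library totals, no low count filter, at least 10 counts in every library, the resubmission mark as covariate, no fold threshold, 1 fit over 12 libraries, leaving out each library, leaving out 6 members of mixed role and, chosen after seeing the data, the unmarked libraries alone.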

Additional observations from a re-analysis of the deposited data

Results flagged for a closer look

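The test of the difference between the diet effects (xenograft minus liver, log2) singled out 10 members. Above 0 were Ccnb1 (2.99), Ccna2 (2.91), Ccne2 (2.66), Ccnf (2.20), Cdk1 (2.18), Ccne1 (2.17) and Ccnb2 (2.13). Below 0 were Ccni (-1.83), Ccng2 (-1.36) and Ccnl2 (-1.28). Groups of 3 mice were not searched for outlying samples.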

How the results depend on the processing

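No paired analysis was possible because no 2 groups share animal numbers. In livers the count of falling members was 8, 3 without a low count filter and 0 to 9 with single libraries left out; the count of rising members was 1, 2 with no threshold on the fold and 0 to 1 with libraries left out. In xenografts 0 members rose, 2 in DESeq2 and 1 with library totals. For the difference of the effects, the positive members numbered 4 to 8 with libraries left out and the negative ones 1 with library totals. Between models, 14 were higher and 11 lower with no threshold on the fold. The share of all genes by that rule is not given here, so these counts are not read as a result about the members. An unadjusted edgeR p under 0.05 was seen between models in 28 of the 38 members and in 9895 of all 15472 genes. Medians in livers ranged from -1.88 to -1.24 (cell cycle) and -0.034 to 0.036 (transcriptional) with libraries left out; library totals gave -0.32 (transcriptional) and -0.10 (atypical). In xenografts they were 0.25 (cell cycle) with the resubmission covariate, -0.039 (transcriptional) and -0.15 (atypical) with library totals, and -0.37 to -0.21 (atypical) with libraries left out. Every other change of sign was in a member that passed no test in that model. In livers, library totals gave Ccnd2 -0.29, Ccnc -0.20, Ccnt2 -0.11, Cdk13 -0.0023 and Cdk14 -0.25; left-out libraries gave Ccnd2 -0.15 to 0.16, Ccnc -0.052 to 0.23, Ccnk -0.15 to 0.027, Ccnl1 -0.15 to 0.11, Ccnt1 -0.51 to 0.10, Cdk9 -0.23 to 0.036, Cdk11b -0.042 to 0.074, Cdk5 -0.19 to 0.12 and Cdk14 -0.16 to 0.18. In xenografts, library totals gave Ccnd3 0.093, Cdk8 0.0067, Cdk19 0.093 and Cdk18 0.11, and the resubmission covariate gave Ccnh -0.10, Ccnj 0.073 and Cdk18 0.10; Cdk18 was 0.0011 in DESeq2, 0.0033 with RLE factors, 0.0067 without a low count filter, 0.0076 with at least 10 counts and 0.0055 in 1 fit over 12 libraries. Left-out libraries gave Ccnd3 -0.17 to 0.24, Cdk1 -0.092 to 0.23, Ccnt2 -0.12 to 0.12, Cdk12 -0.077 to 0.14, Cdk19 -0.10 to 0.13, Ccnj -0.33 to 0.019, Ccny -0.034 to 0.13 and Cdk18 -0.15 to 0.14. The causes were not tested. With the resubmission mark as covariate 6 liver members fell. Unmarked libraries alone, chosen after seeing the data (the lone control tumor was assumed to vary like the other groups), gave 0 members in either direction for both diets and for the difference, 2 lower members between models, medians of 0.031 (transcriptional, livers) and 0.24 (cell cycle, xenografts), and, in livers, Ccnl1 0.062, Cdk9 0.031, Cdk5 0.039 and Cdk14 -0.28, and in xenografts Ccnh -0.10, Ccnj 0.070 and Cdk18 0.10; the 13 liver members past the adjusted p kept their sign and had adjusted p of 0.092 to 0.14. Marked libraries alone allow no fit, since the No-Trp xenografts hold none and each liver group holds 1. The fewest reads per liver were on Cdk6 (33 to 298), Cdk14 (36 to 67) and Ccne2 (39 to 261), and per xenograft on Ccne2 (30 to 181).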
